A study of Mus musculus with 27 samples.

Results

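The MHC class II genes were described here as 7 genes found by symbol among the 19392 genes measured by RNA-Seq in the mouse kidney: H2-Aa, H2-Ab1, H2-Eb1, Cd74, Ciita, H2-DMa and H2-DMb1. All 7 were found, and all 7 were among the 18188 genes tested. The kidneys came from the uIRIx model, in which the right kidney was removed and the pedicle of the left kidney was clamped. All mice were C57BL/6, and 9 ischemia times were compared with 3 kidneys each: 0 min (the sham group), 16, 18, 20, 22, 24, 26, 28 and 30 min, 27 kidneys from 27 mice in all. Every mouse, the 0 min mice included, lost the right kidney under anesthesia on a heated platform, and the left kidney was taken 24 h after surgery. The methods state that part of the left kidney was fixed for histology. RNA came from kidney tissue, so each value is a mixture of the cell types in the tissue used. The question here was how the level of the class II genes differed between ischemia times.

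MHC class II molecules carry peptides from endocytosed proteins to the cell surface, where CD4+ T cells read them. Dendritic cells, macrophages and B cells carry them at all times, and interferon gamma can induce them in other cells, among them kidney tubule and endothelial cells. Ciita is the coactivator on which class II transcription depends, and it works through a complex of RFX, NF-Y and CREB proteins bound at the X and Y boxes of class II promoters.

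The members lie on 3 chromosomes. Ciita is at chr16:10480014-10531064 (RefSeq, GRCm38.p6). On chromosome 17, within the mouse MHC, lie H2-DMa (chr17:34119693-34139101), H2-DMb1 (chr17:34153191-34160229), H2-Ab1 (chr17:34263227-34269418), H2-Aa (chr17:34282744-34287823) and H2-Eb1 (chr17:34305867-34316674). Cd74 lies outside the MHC. The promoters of H2-Aa, H2-Eb1 and H2-DMb1 are shown as the 150 bases before the start, on the gene's own strand. Of 4 members with a promoter available, these 3 held both of the letter runs marked, and they were printed for that reason. They encode the alpha chain, a beta chain and a chain of the loading factor. Capitals mark the letters GNAAC, the core of an X box, and TGATTGG, the core of a Y box.
H2-Aa (chr17:34287824-34287973, minus strand): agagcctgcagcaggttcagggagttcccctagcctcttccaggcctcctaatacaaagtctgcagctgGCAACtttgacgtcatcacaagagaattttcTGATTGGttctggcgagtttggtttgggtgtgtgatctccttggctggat
H2-Eb1 (chr17:34305717-34305866, plus strand): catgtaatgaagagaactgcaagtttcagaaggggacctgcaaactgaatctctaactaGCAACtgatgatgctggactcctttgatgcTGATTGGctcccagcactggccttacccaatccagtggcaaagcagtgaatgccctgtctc
H2-DMb1 (chr17:34153041-34153190, plus strand): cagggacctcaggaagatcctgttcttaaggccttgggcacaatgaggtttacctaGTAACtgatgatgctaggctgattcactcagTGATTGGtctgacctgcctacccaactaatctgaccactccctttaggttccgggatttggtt

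In the 3 printed promoters the Y letters began 30 or 31 bases after the X letters. The letters were chosen after these sequences had been read. Searched on both strands of all 32851 RefSeq promoters of 300 bases, from 250 before to 50 after the start, the pair at a distance of 28 to 33 bases was found in 63 promoters (0.192%), and TGATTGG alone in 2568 (7.82%). H2-DMa, with 2 starts in the table, had neither. The pair was also found at H2-Oa, H2-Ob and H2-Eb2, class II genes that were below 0.5 FPKM in all 27 kidneys, so the letters were shared by class II genes of high and of very low level. H2-DMb2, the copy of H2-DMb1, had TGATTGG but not the pair, and it too was called lower at all 8 ischemia times. A match is a description of letters and not a bound site.

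Levels are in FPKM, fragments scaled to the length of the transcript and to the mapped fragments of the library, which allows genes of different length to be compared. Kidney identity was plain: the summed FPKM of 5 proximal tubule markers was 2433 to 2780 in the 0 min kidneys, and markers of the loop of Henle, collecting duct and podocyte were above 0 in every kidney. The summed FPKM of all genes was similar in every kidney, from 512453 to 554036, and the number of reads behind them is unknown. Kidney 1 of the 0 min group stood apart from kidneys 2 and 3 in interferon-responsive genes. Of the 7 class II genes, 4 were below 50% of the mean of kidneys 2 and 3, of 9 guanylate-binding protein genes 9, and of 10 class I presentation genes 6, against 1.79% (214 genes) of all genes with a mean of 1 FPKM or more in kidneys 2 and 3. Irf1, an interferon-induced transcription factor, was 8.82 FPKM in kidney 1, 76.6 in kidney 2 and 63.9 in kidney 3. The T cell gene Cd3g went the other way, with 1.48, 0.13 and 0.19 FPKM. The results of the 7 class II genes against the 0 min group are therefore given with and without kidney 1, and also with kidney 1 alone.

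**Figure D1:**
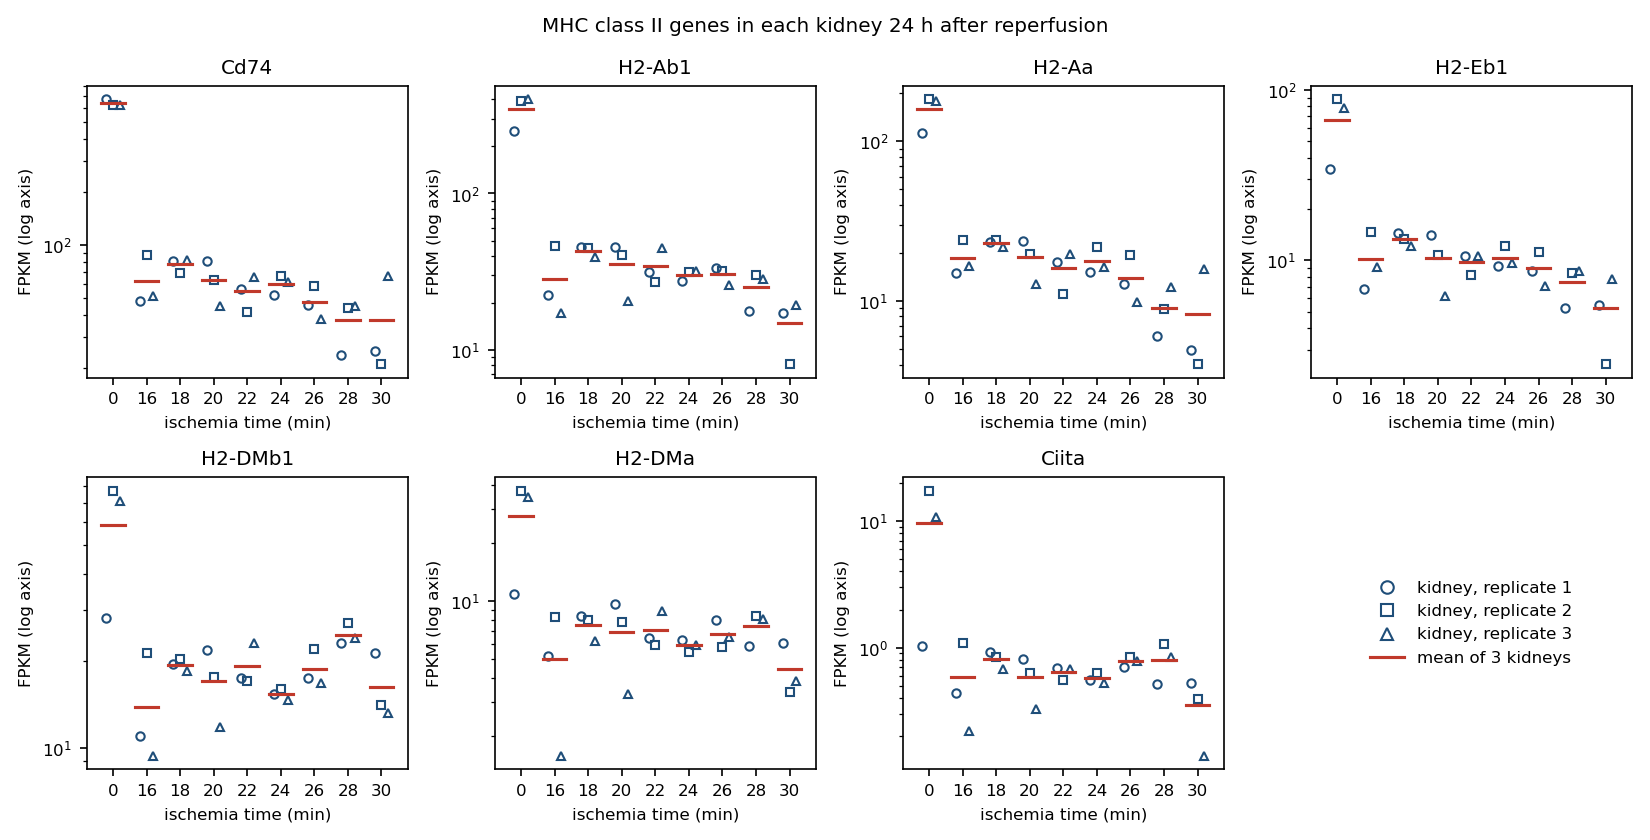
FPKM (log axis) of each of the 7 class II genes in each of the 27 kidneys by ischemia time in min, with symbols for replicate 1, 2 and 3 and a line at the mean of 3 kidneys. For Cd74 the 0 min kidneys were between 622 and 674 FPKM and the 24 ischemic kidneys between 21.1 and 87.7; for Ciita, 0 min kidney 1 was among the ischemic kidneys.

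All 7 class II genes were lower at every ischemia time from 16 to 30 min than at 0 min, by 3.26 (H2-DMb1) to 15.1 times (Ciita) in mean FPKM over the 24 ischemic kidneys. With 0 min kidney 1 alone these ratios were 1.56 for H2-DMb1 and 1.62 for Ciita, and 12.2 for Cd74. The difference from 0 min was already present at 16 min, and no difference among the times from 16 to 26 min was detected. Each fold is relative to the sham group, in which kidneys 2 and 3 were higher than kidney 1 in interferon-responsive genes. Gbp6, for example, was 17.7, 466 and 291 FPKM in the 0 min kidneys and 0.36 to 3.37 after ischemia. Whether the sham level was raised or the ischemic level lowered was not tested. At 28 and 30 min together, H2-Aa was called lower again than at 16 to 26 min. H2-Ab1, H2-Eb1 and Cd74 were lower by adjusted p but short of the fold threshold, and leaving out 1 kidney gave 0 to 2 members called. In kidney tissue of mixed cells, fewer class II-bearing cells and less class II RNA per cell cannot be told apart.

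Cd74, the invariant chain that escorts new class II molecules and keeps their groove closed, was the most abundant member. It was 674, 622 and 624 FPKM in 0 min kidneys 1, 2 and 3. In the 16 min group it was 47.9, 87.7 and 51.2, and in the 18 min group 81.6, 69.6 and 82.6. Every one of these 6 ischemic kidneys was far below the lowest 0 min kidney. The 20 min kidneys had 80.8, 63.2 and 45.4 FPKM, the 22 min kidneys 56.7, 42.0 and 65.7, and the 24 min kidneys 52.2, 67.0 and 62.0. At 26 min Cd74 was 45.9, 58.7 and 37.9, at 28 min 23.9, 43.9 and 45.1, and at 30 min 25.0, 21.1 and 66.7. The lowest 0 min kidney was 7.09 times the highest ischemic kidney, and kidney 1 was no lower than the other two sham kidneys. Mean Cd74 was 640.0 ± 29.1 FPKM at 0 min (SD, n = 3) and 55.2 ± 18.5 in the ischemic kidneys (SD, n = 24), 8.62% of the 0 min level.

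H2-Aa and H2-Ab1 encode the alpha and beta chains of the class II molecule I-A. H2-Aa was 112, 184 and 180 FPKM in the 0 min kidneys. It was 15, 24.3 and 16.5 at 16 min, 23.5, 24.0 and 21.7 at 18 min, 23.9, 19.8 and 12.9 at 20 min and 17.5, 11.1 and 19.8 at 22 min. It was 15.2, 21.8 and 16.3 at 24 min, 12.7, 19.4 and 9.81 at 26 min, 6.01, 8.91 and 12.2 at 28 min and 4.90, 4.01 and 15.9 at 30 min. No ischemic kidney reached the 0 min range, and 5 of the 6 kidneys of 28 and 30 min were at 12.2 FPKM or less. H2-Ab1 was 249.1, 391.9 and 399.7 FPKM at 0 min. Its ischemic kidneys ran from 8.11 (30 min, kidney 2) to 45.9 (16 min, kidney 2), with a median of 30.7. H2-Eb1, the beta chain of I-E, was 34.2, 87.9 and 78.5 FPKM at 0 min and from 2.46 to 14.6, with a median of 9.22, in the ischemic kidneys. For these 3 chains kidney 1 was the lowest of the 0 min group, yet still 4.63, 5.42 and 2.35 times the highest ischemic kidney for H2-Aa, H2-Ab1 and H2-Eb1.

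H2-DMa and H2-DMb1 encode the chains of H2-M, which sits in endosomes and exchanges the invariant chain fragment for peptide. H2-DMb1 was 28.1, 77.2 and 71.2 FPKM at 0 min, and at 28 min, where it was highest among the ischemic groups, 23.0, 26.9 and 24.0. The other ischemic kidneys ran from 9.41 (16 min, kidney 3) to 23.1 (22 min, kidney 3). The lowest 0 min kidney exceeded the highest ischemic kidney by only 1.04 times. H2-DMa was 10.9, 37.4 and 34.9 FPKM at 0 min and from 1.57 (16 min, kidney 3) to 9.60 (20 min, kidney 1) after ischemia. For both genes the groups did not overlap, but kidney 1 lay nearer to the ischemic kidneys than to kidneys 2 and 3. H2-DMb1 has a close copy, H2-DMb2, and how the estimated counts were split between them is uncertain. H2-DMb2 was 5.50, 25.5 and 24.7 FPKM at 0 min and 0.91 to 4.71 after ischemia, the same direction as H2-DMb1.

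Ciita was the least abundant member and the one in which the 0 min kidneys differed most, with 1.04, 17.3 and 10.8 FPKM. It was 0.44, 1.09 and 0.22 at 16 min, 0.92, 0.84 and 0.68 at 18 min, 0.81, 0.63 and 0.33 at 20 min and 0.69, 0.56 and 0.68 at 22 min. It was 0.56, 0.63 and 0.53 at 24 min, 0.70, 0.85 and 0.79 at 26 min, 0.52, 1.06 and 0.84 at 28 min and 0.53, 0.39 and 0.14 at 30 min. Kidneys 2 and 3 were far above every ischemic kidney, whereas kidney 1 was below 1 kidney of the 16 min group and 1 of the 28 min group. Kidney 1 had 7.39% of the Ciita level of kidneys 2 and 3, while its Cd74 was 108% of theirs. Accordingly, the ratio of Cd74 to Ciita FPKM was 648 in kidney 1, 35.9 and 57.8 in kidneys 2 and 3, and 41.5 to 476 in the ischemic kidneys.

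The class II genes were then tested against the 0 min group with limma on quantile normalized log2(FPKM + 1) values, with p-values adjusted over all 18188 genes by the Benjamini-Hochberg method, and a gene was called when its adjusted p was under 0.05 and its log2 fold change beyond 1 in either direction. All 7 were called lower at each of the 8 ischemia times, 56 of 56 comparisons, with adjusted p from 1.65e-09 to 0.00483. In order of ischemia time from 16 to 30 min, the share of all genes called lower was 0.979%, 1.09%, 0.962%, 1.2%, 1.15%, 1.61%, 4.21% and 5.59%. FPKM ranges did not overlap with the 0 min range in 54 of the 56 comparisons, the exceptions being Ciita at 16 and 28 min. In the same order, 7.54%, 13.1%, 11.6%, 14.4%, 12.8%, 12.8%, 21.4% and 21.2% of all genes were lower without overlap. The 8 comparisons use the same 3 sham kidneys and are not independent of one another.

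The size of the difference from 0 min is given here gene by gene. Against the 0 min group the log2 fold change of Cd74 was from -4.33 to -3.17 over the 8 times (SE 0.35), that of H2-Ab1 from -4.59 to -3.06 (SE 0.34) and that of H2-Aa from -4.30 to -2.69 (SE 0.37). These 3 genes had the largest estimates on this scale. H2-Eb1 had log2 fold changes from -3.49 to -2.20 (SE 0.34) and Ciita from -2.59 to -2.15 (SE 0.46). Those of H2-DMa were from -2.36 to -1.68 (SE 0.41) and of H2-DMb1 from -2.04 to -1.22 (SE 0.30). Each SE rests on a spread shared by all 9 groups. For Ciita the SD on the log2 scale was 1.67 at 0 min and at most 0.356 in the ischemic groups. Its SE therefore understates the spread of the sham kidneys. The added 1 FPKM makes the fold of a low gene smaller, and a mean of log values gives the low 0 min kidney 1 more weight than a mean of FPKM. Mean Ciita was 15.1 times lower in FPKM, but its log2 fold change for the mean of 16 to 30 min was -2.33. The FPKM ratio of Ciita rested on kidneys 2 and 3, being 9.20 without 0 min kidney 2 and 1.62 with kidney 1 alone, while that of Cd74 was 11.6 with all 3, 11.8 without kidney 2 and 12.2 with kidney 1 alone. The median log2 fold change of the 7 members was -2.62 at 16 min and -3.49 at 30 min, when the median of all genes was -0.0028 and 0.00077.

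**Figure D2:**
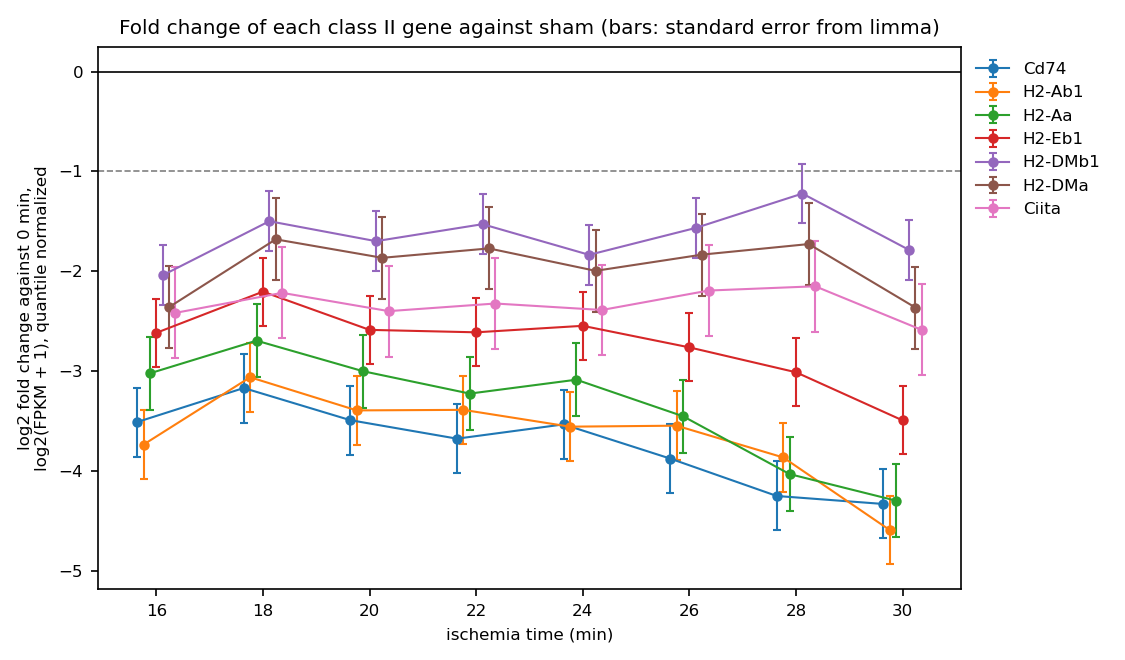
Log2 fold change against 0 min on the log2(FPKM + 1) scale for each of the 7 class II genes by ischemia time in min, with bars for the standard error from limma and a dashed line at -1. All 56 points lie below the dashed line, from -4.59 to -1.22, with H2-DMb1 nearest to it at 28 min.

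For the mean of all 8 ischemia times against 0 min, 7 of 7 members were called lower, against 1.71% of all genes, and 6 of 7 did not overlap with any of the 24 ischemic kidneys, against 3.74%. Without 0 min kidney 1, all 7 were called at each of the 8 times, and the log2 fold change for the mean of 16 to 30 min moved from -2.33 to -3.28 for Ciita, from -1.95 to -2.48 for H2-DMa and from -1.65 to -2.09 for H2-DMb1, but from -3.73 to -3.71 for Cd74. With kidney 1 as the only 0 min kidney, the log2 fold changes of H2-Aa, H2-Ab1, H2-Eb1 and Cd74 over the 8 times were between -4.38 and -1.40. For the mean of 16 to 30 min the log2 fold change was then -0.45 for Ciita, -0.76 for H2-DMb1 and -0.88 for H2-DMa. Thus the log2 fold changes of the 3 chains and Cd74 stayed beyond -1 with kidney 1 alone, whereas those of Ciita, H2-DMa and H2-DMb1 for this mean did not. In fits holding only the 6 kidneys of the times compared, 1 member (Cd74) was called at 16 min and 4 at 20 min, and Ciita at no time (limma, adjusted p = 0.0621 to 0.203).

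**Figure D3:**
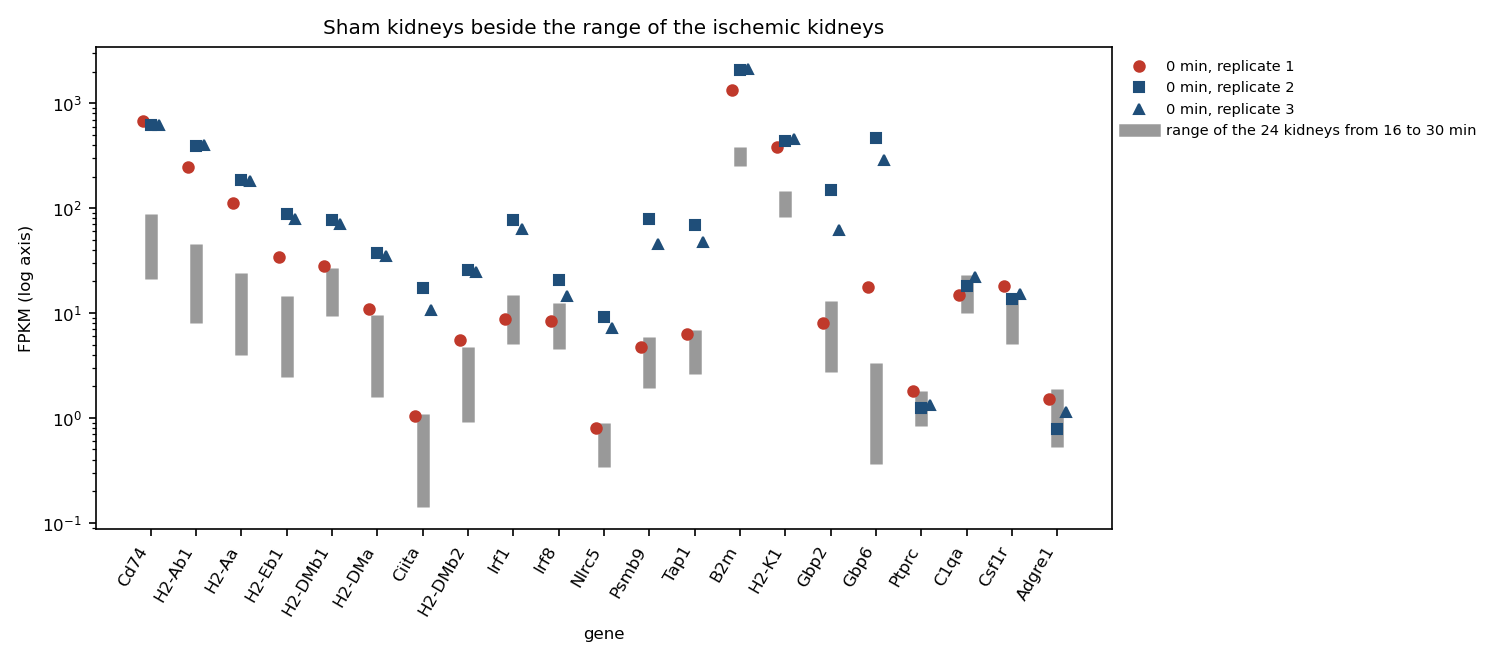
FPKM (log axis) of the class II genes, H2-DMb2 and selected interferon-responsive, class I and macrophage genes in the 3 kidneys of the 0 min group (kidney 1 red, kidneys 2 and 3 blue), beside the range of the 24 ischemic kidneys (gray bars). Kidney 1 was at the level of the others for Cd74 (674 against 622 and 624), but near the ischemic kidneys for Ciita (1.04), Irf1 (8.82) and Gbp2 (7.97).

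Among the ischemia times from 16 to 26 min, no difference was detected in any member with 3 kidneys a time. The highest mean FPKM of these times was at 18 min for all 7, and it exceeded the lowest by 1.40 (H2-DMb1) to 1.65 times (H2-Aa, 23.0 FPKM at 18 min and 14.0 at 26 min). Of 105 tests, 7 members over the 15 pairs of times, none had an adjusted or unadjusted p under 0.05 with limma. The lowest adjusted p was 0.608 and the largest difference 0.76 on the log2 scale. These tests used a spread shared with the 0 min kidneys, which can hide differences between tighter ischemic groups. For Ciita the SD on the log2 scale was 1.67 at 0 min and 0.035 to 0.356 from 16 to 26 min. H2-DMb1 was 19.45, 20.32 and 18.38 FPKM at 18 min and 15.41, 16.05 and 14.71 at 24 min, without overlap (unadjusted p = 0.273 by limma). Ordered by mean level, 0 min came first for each member and 18 min second for H2-Aa, H2-Ab1, H2-Eb1, Cd74 and H2-DMa, while for Ciita and H2-DMb1 the second was 28 min. Only the step from 0 min to the second time passed the test; no later neighbors in the order differed by adjusted p. Between 26 and 28 min no member was called in either direction (limma, adjusted p from 0.309 to 0.985), against 1.06% of all genes called lower and 0.44% called higher.

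The 28 and 30 min groups together were then compared with the groups of 16 to 26 min. The mean of H2-Aa was 18.1 ± 4.65 FPKM at 16 to 26 min (SD, n = 18) and 8.66 ± 4.65 at 28 and 30 min (SD, n = 6), a log2 difference of -1.08 (SE 0.21, adjusted p = 0.0002 by limma). It was the only member called, against 2.4% of all genes called lower. H2-Ab1 went from 33.7 ± 9.32 to 20.1 ± 8.07 FPKM, a log2 difference of -0.78 (SE 0.20, adjusted p = 0.00229 by limma). Cd74 went from 61.0 ± 15.1 to 37.6 ± 17.7, a difference of -0.75 (SE 0.20, limma adjusted p = 0.00339), and H2-Eb1 from 10.5 ± 2.60 to 6.33 ± 2.39, a difference of -0.70 (SE 0.20, adjusted p = 0.0051). These 3 passed the adjusted p but not the fold. With no condition on the fold, 22.5% of all genes were lower with an adjusted p under 0.05. For the others the difference did not pass the test: H2-DMb1 was 17.3 ± 3.83 and 20.4 ± 5.55 FPKM (log2 difference 0.19, SE 0.17), H2-DMa 6.52 ± 1.98 and 5.91 ± 2.06 (-0.13, SE 0.24) and Ciita 0.664 ± 0.210 and 0.580 ± 0.327 (-0.05, SE 0.26).

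Kidney 3 of the 30 min group differed from the rest of the 28 and 30 min kidneys. It had the highest Cd74 (66.7 FPKM) and H2-Aa (15.9 FPKM) among these 6, together with the lowest Ciita (0.14 FPKM) of all 27. The complement gene C1qa, a macrophage marker, was 23.1 FPKM in this kidney and 10.02 to 14.09 in the other five, and the class II-processing protease Ctss was 15.8 against 5.79 to 8.64. Without it, Cd74 passed both thresholds too (log2 difference -1.02), making 2 members called. The call of H2-Aa was lost, at -0.97, -0.97 and -0.93, without 28 min kidney 1, 30 min kidney 1 or 30 min kidney 2. This call thus lay near the fold threshold and depended on single kidneys. Leaving out 1 kidney at a time gave H2-Aa log2 differences from -1.36 to -0.93, with only 6 kidneys at 28 and 30 min. The tubule moved at the same times, the 5 proximal tubule markers summing to 555 to 1027 FPKM at 28 and 30 min, against 1505 to 2904 at 16 to 26 min. The 6 neutrophil and inflammatory monocyte markers summed to 14.5 to 25 FPKM, against 4.30 to 14.0 at 16 to 26 min. In 28 and 30 min against 16 to 26 min, the log2 differences of these 6 ran from -0.56 to 1.66. Against 0 min, S100a8 and S100a9 were called higher and Ly6c2 lower at 30 min, so the markers did not move together. The 8 T and NK cell markers summed to 0.53 to 0.91 FPKM, against 1.16 to 4.04. The part of these cells in the class II values was not tested.

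The proportions among the members differed between the 0 min and the ischemic kidneys. H2-DMb1 over H2-Ab1 in FPKM was 0.113, 0.197 and 0.178 in the 0 min kidneys, 0.428 to 0.685 (median 0.512) at 16 to 26 min, and 0.680 to 1.74 (median 1.07) at 28 and 30 min. Every ischemic kidney was above every 0 min kidney in this ratio. For the partners of I-A the ranges overlapped, H2-Ab1 over H2-Aa being 2.13 to 2.22 at 0 min, 1.05 to 2.65 at 16 to 26 min and 1.22 to 3.52 at 28 and 30 min. The 7 genes summed to 1109, 1418 and 1399 FPKM in the 0 min kidneys, 0.207% to 0.265% of all FPKM. The sum was 100 to 203 FPKM at 16 to 26 min and 53.5 to 128 at 28 and 30 min.

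**Figure D4:**
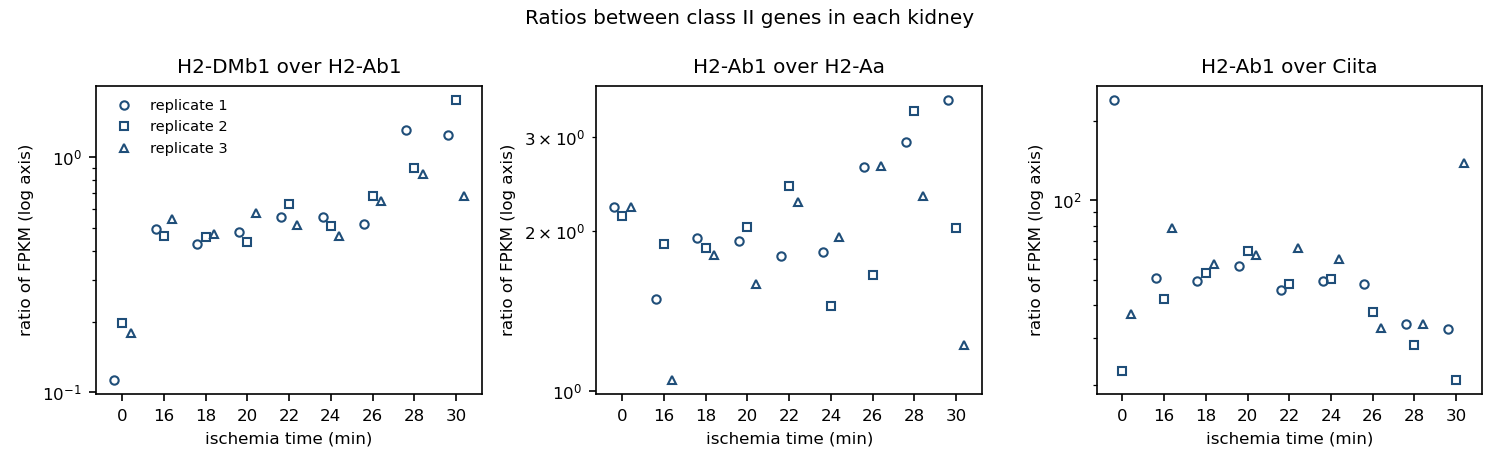
Ratios of FPKM (log axes) in each kidney by ischemia time in min, for H2-DMb1 over H2-Ab1, H2-Ab1 over H2-Aa and H2-Ab1 over Ciita. H2-DMb1 over H2-Ab1 was 0.113 to 0.197 at 0 min and 0.428 to 1.74 after ischemia, and H2-Ab1 over Ciita was 240 in 0 min kidney 1 against 22.6 and 37.0 in kidneys 2 and 3.

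Markers of the cells that carry class II at all times were read in the same kidneys. Ptprc (CD45), carried by all leukocytes, was 1.80, 1.24 and 1.33 FPKM at 0 min, 1.03 to 1.79 at 16 to 26 min and 0.84 to 1.73 at 28 and 30 min. The 10 macrophage markers summed to 82.6 to 95.5 FPKM at 0 min, 80.0 to 127 at 16 to 26 min and 70.5 to 126 at 28 and 30 min. Part of this sum was Cd68, a lysosomal protein of macrophages, which was called higher at all 8 times (log2 fold change 1.96 to 2.63). Without Cd68 the other 9 summed to 79.6 to 92.0 FPKM at 0 min, 59.6 to 97.5 at 16 to 26 min and 44.5 to 95.1 at 28 and 30 min, or 44.5 to 58.5 when 30 min kidney 3 is left out. The median log2 fold change of the 10 was -0.13 at 16 min, -0.47 at 28 min and -0.30 at 30 min. Csf1r, the receptor for the macrophage growth factor, was called lower at 26, 28 and 30 min. For 9 dendritic cell markers the sums were 4.78 to 5.63, 3.61 to 7.25 and 3.19 to 5.50 FPKM, and for 6 B cell markers 0.84 to 1.27, 0.85 to 1.95 and 0.62 to 1.49. None of these 26 markers was at 0 in all kidneys, and the sums at 16 to 26 min overlapped with those at 0 min in each of the 4 groups. The class II sum did not. Without Cd68 the macrophage sums still overlapped, but their median at 16 to 26 min, 76.2 FPKM, was below the lowest 0 min kidney (79.6). The dendritic and B cell sums were low in every kidney, at most 7.25 and 1.95 FPKM. Only 12 of the 26 were high enough at 0 min to reach a log2 fold change of -1 on the log2(FPKM + 1) scale, and 2 of these 12, Cd68 and Csf1r, were called at any time. The other 14, among them all 6 B cell and 7 of the 9 dendritic cell markers, could not have been called lower. Of these, Clec9a, a receptor of cross-presenting dendritic cells, was 0.54, 0.76 and 0.71 FPKM at 0 min and 0.11 to 0.57 after ischemia, and its log2 fold changes were between -0.63 and -0.41 with an adjusted p of 0.000169 to 0.00392 over the 8 times by limma. Xcr1, a chemokine receptor of the same cells, had log2 fold changes from -0.25 to -0.18 (adjusted p from 0.00552 to 0.0626). The part of these cells in the class II values was not tested.

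**Figure D5:**
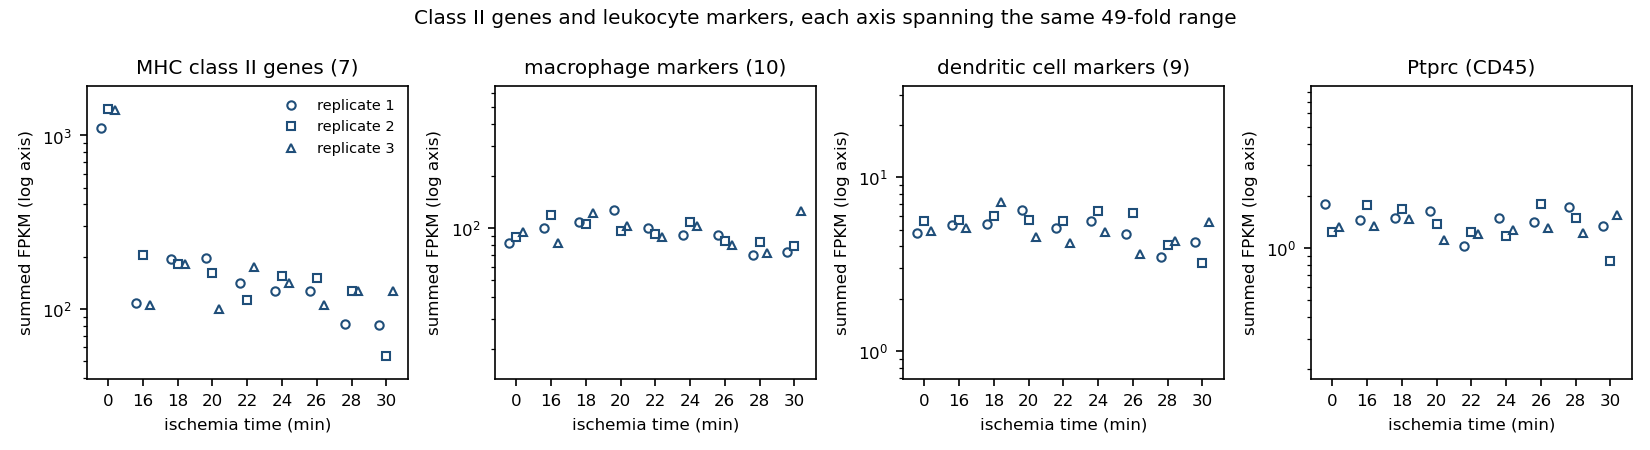
Summed FPKM of the 7 class II genes, of 10 macrophage markers and of 9 dendritic cell markers, and FPKM of Ptprc, in each kidney by ischemia time in min, on log axes that all span the same number of folds. The class II sum was between 1109 and 1418 at 0 min and between 53.5 and 203 after ischemia, while Ptprc was 1.24 to 1.80 at 0 min and 0.84 to 1.79 after ischemia.

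Among 11 other class II genes and class II transcription factors, H2-DMb2 alone was called, lower at all 8 times (log2 fold change -2.88 to -2.19). The list's median log2 fold change at 16 min was -0.06. The DNA-binding partners of Ciita, Rfx5, Rfxap, Rfxank, Nfya, Nfyb, Nfyc and Creb1, were called at no time, and their log2 fold changes were between -0.45 and 0.30. Rfx5, the largest RFX subunit, was 5.24, 7.45 and 5.35 FPKM in the 0 min kidneys and 5.42 to 7.31 in the ischemic kidneys, so the groups overlapped. H2-Oa and H2-Ob, which form the inhibitor of H2-M, and H2-Eb2 were measured but too low to have been called lower.

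Of 9 genes of class II antigen processing and costimulation found in the data, none was called at any time, with a median log2 fold change of -0.11 at 16 min, but Cd80, Cd86 and Cd40 were too low at 0 min to reach a log2 fold change of -1. Ctss, the cathepsin that trims the invariant chain, had log2 fold changes from -0.997 to -0.504 (adjusted p from 0.0131 to 0.227). Cd86, a costimulatory ligand for T cells, was 0.66, 1.18 and 0.61 FPKM at 0 min and 0.16 to 0.49 after ischemia. The groups did not overlap, mean Cd86 was 2.60 times lower in FPKM over the 24 ischemic kidneys, and its log2 fold change was -0.67 to -0.50 (adjusted p from 1.39e-05 to 0.00127 by limma). Ifi30, the thiol reductase of the endosome, and the protease Ctsb had log2 fold changes above 0 at all times, from 0.26 to 0.86 and from 0.17 to 0.78.

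In the interferon gamma axis, 3 of the 8 genes described here were called lower at 16 min. Irf1 was called lower at all 8 times, with log2 fold changes of -2.10 to -1.73, Socs1, the feedback inhibitor, at 6 times and Irf8, a factor of myeloid cells, at 4. Ifngr2, a receptor chain, was called higher at 28 and 30 min. Ifng itself was 0.11, 0.10 and 0.05 FPKM at 0 min and between 0 and 0.10 after ischemia. Irf1 had the pattern of Ciita in the sham group, its 5.06 to 15 FPKM in the ischemic kidneys including the level of 0 min kidney 1 but not those of kidneys 2 and 3.

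Class I presentation, which shows peptides to CD8+ T cells, had 8 of 10 genes called lower at all 8 times, with a median log2 fold change of -2.07 at 16 min beside -2.62 for the class II genes. B2m, the light chain of class I, was 1332, 2090 and 2127 FPKM at 0 min and 255 to 382 after ischemia. Nlrc5, the coactivator of class I genes as Ciita is of class II, was 0.80, 9.16 and 7.12 FPKM at 0 min and 0.34 to 0.90 after ischemia, again with kidney 1 within the ischemic range. The guanylate-binding proteins, interferon-induced GTPases of cell defense, had 9 of 9 genes called lower at 16 min, with a median of -2.27. These counts and those of class I used all sham kidneys. In kidney 1, Gbp2, Gbp3, Gbp5, Gbp7 and Gbp9 were within the ischemic range, as were Tap1, Tap2 and Psmb9 of class I. Gbp4, Gbp6, Gbp8 and Gbp10, and H2-K1, H2-D1, B2m and Psmb8 of class I, were above every ischemic kidney there.

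The genes outside the 7 whose pattern was most like theirs were ranked by Pearson r with the mean of the standardized members, among 12339 genes. The first 10 were Gbp6 (r = 0.963), H2-DMb2 (0.959), Tgtp1 (0.953), Igtp (0.949), Irgm2 (0.944), B2m (0.943), Dtx3l (0.942), Ifi47 (0.939), Gbp10 (0.936) and Irgm1 (0.935), over 27 kidneys. Gbp6, Gbp10, Tgtp1, Igtp, Irgm1, Irgm2 and Ifi47 encode interferon-inducible GTPases. The 27 points fall into 0 min and ischemic kidneys, and over the 24 ischemic kidneys alone the same 10 genes had r from 0.435 to 0.855. Ranked over those 24, the first 5 genes were Eme1 (0.862), Irgm1 (0.855), Cxcl10 (0.849), Pmf1 (0.847) and Nrm (0.8325). Eme1, Pmf1 and Nrm had r below 0 over all 27 kidneys (-0.378, -0.287 and -0.622). Of the 10 genes named above, only Irgm1 and Tgtp1 were among the first 10 there. When each time's mean was taken off in all 27 kidneys, those of 0 min included, the first 5 were Rcn1 (0.853), Cxcl10 (0.828), Hcls1 (0.820), B2m (0.802) and Aida (0.802). All points share the libraries' scaling, and these coefficients are descriptions without a test. Among the members, the 21 pairwise r over 27 kidneys were 0.719 to 0.981, and over the 24 ischemic kidneys -0.0101 to 0.962 with a median of 0.590.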

How the data were processed

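The values are FPKM per gene and kidney as deposited by the authors, linear and given to 2 decimals, from DNBSEQ libraries. The submitters' processing notes name Bowtie2, RSEM, DESeq2 and the build GRCm38.p6, without versions and without the order of steps. FPKM scales each library to its own mapped fragments, so the values are shares and their depth is unknown. The authors' methods describe quantile normalization and log2 transformation, which the deposited values had not undergone, so both were applied here. All 27 columns belonged to the series' samples (0 others).

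Genes above 0 FPKM in at least 3 kidneys (18188 of 19392) were converted to log2(FPKM + 1), quantile normalized and fitted in limma 3.58.1 (R 4.3.3) with 9 group means over 27 kidneys, so that all groups share 1 estimate of the spread with 18 residual degrees of freedom. Folds on this scale understate the change of low genes. Calls needed an adjusted p under 0.05 and a log2 fold change beyond 1. Groups and replicate numbers came from the sample titles. The script was tested on simulated data. The 7 members, the pathway and marker lists and the comparisons were chosen with earlier results of these data known. The genes named are the 7 members, list genes that passed the test or served as examples, the 10 genes with the largest correlation over 27 kidneys (mean of at least 1 FPKM) and the first 5 after the time means were taken off. One gene of the interferon gamma list is not reported here. The genes of the kidney and leukocyte marker lists were used for levels and counts. The fits were repeated without quantile normalization, with TPM, with 0.1 FPKM added in place of 1, with a filter of 1 FPKM or none, with only the times compared, with a trended prior, with a replicate block, without each kidney in turn, and, chosen after seeing the data, with kidney 1 alone as the 0 min group. Promoters and gene positions were read from RefSeq (GRCm38.p6), and no promoter was printed for H2-Ab1, Ciita or Cd74.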

Additional observations from a re-analysis of the deposited data

Results flagged for a closer look

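The difference from the 0 min group changed between the shorter and the longer ischemia times for 4 of the 7 members. This was by the limma contrast of the mean of 28 and 30 min with the mean of 16 to 26 min. The log2 difference was -1.08 for H2-Aa (adjusted p = 0.0002), -0.78 for H2-Ab1 (adjusted p = 0.00229), -0.75 for Cd74 (adjusted p = 0.00339) and -0.70 for H2-Eb1 (adjusted p = 0.0051) by limma. In the same contrast, 22.5% of all genes were lower with an adjusted p under 0.05. The cause was not tested.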

How the results depend on the processing

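Over the alternatives planned, 1321 of 1344 values of the 7 members kept their direction and their side of the thresholds, 22 lost a call, 1 gained one and 0 reversed. Of 1022 values against the 0 min group, 1003 kept the call. Of the 19 lost, 18 came from the fits that held only the times compared, in which the spread rests on 6 kidneys: 1 member was called at 16 min and 4 at 20 min, and 5 or 6 at the other times. This fit could not be run for the mean of 16 to 30 min, which uses every kidney. The other loss was H2-DMb1 at 28 min without 0 min kidney 2 (log2 fold change -0.97), which left 6 members. With kidney 1 alone as the 0 min group, chosen after seeing the data, log2 fold changes for the mean of 16 to 30 min ran from -3.78 (Cd74) to -0.45 (Ciita). The lone kidney was assumed to vary like the other groups. For 28 and 30 min against 16 to 26 min, leaving out 1 kidney gave 0 to 2 members called. The scalings moved the median of all genes by no more than 0.07 on the log2 scale. Of the 10 genes most like the members, 6 remained with Spearman correlation and 2 without the 0 min kidneys. The replicate number as a block left 7 members called at each time against 0 min, and 0 and 1 in the later comparisons. Same-numbered kidneys did not deviate together: 25 of 108 pairs had a correlation over 0.1, with a range from -0.416 to 0.480, and 10 of 27 kidneys correlated best with their own number. Depth is not given by FPKM, so counting error for the lowest member, Ciita, is unknown.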
